A study of Homo sapiens with 12 samples.

Results

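Of the 12 RNA-seq libraries of the series, 3 (sh-A 3, sh-B 3 and sh-C 1) stood apart from the other libraries of their own hairpin group. These 3 libraries were selected on their measured values, so what follows is a description of how they differ from their 6 group mates (sh-A 4, sh-A 5, sh-B 4, sh-B 5, sh-C 2 and sh-C 3), and no p-value is given for it. For each gene, the deviation is the log2 level in the outlying library minus the mean log2 level in its 2 mates, with levels as library-scaled CPM (counts-per-million) values and 0.5 CPM added. A gene was counted as shared when its deviation was at least 1.5-fold in the same direction in all 3 hairpin groups and each outlying library lay outside the range of its mates. There were 31 such genes among 15592 tested.

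All libraries came from H1975, an established human lung adenocarcinoma line driven by mutant EGFR, which carried a tetracycline-inducible short hairpin RNA. Every culture, control included, received 0.5 µg/ml doxycycline for 2 days. The control group (control 1, 2 and 3) carried shControl and is labelled wild type. The sh-A, sh-B and sh-C groups have 3 libraries each and are labelled as KAT5 knockdown. The design text names sh-B as shTIP60-1 and sh-C as shTIP60-2, and sh-A is named in the sample titles. The sources used here do not say whether the libraries within a group are separate cultures, or when each was prepared, so any p-value measures the spread between these libraries, which may be technical.

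KAT5, also called TIP60, is the catalytic subunit of the NuA4/TIP60 complex, which acetylates histones and other proteins and exchanges histone variants at promoters and at sites of DNA damage. A hairpin lowers the transcript of its target through RNA interference, and different hairpins against one gene share the target but not their unintended targets. Genes that differ between libraries of the same hairpin therefore vary at a fixed hairpin sequence. Sequencing libraries of the same RNA are also known to differ in how well transcripts rich in G and C are recovered.

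Expected counts summed to between 15631504 and 28073366 per library, and in the outlying ones to 23854019 (sh-A 3), 21896342 (sh-B 3) and 20968576 (sh-C 1). Epithelial markers of the line (EPCAM, KRT8, KRT18, KRT7, NKX2-1 and SFTPB) were present in every library and summed to 2756 to 4595 CPM, with SFTPB at no more than 4.72 CPM. Fibroblast markers summed to at most 6.32 CPM and endothelial markers to at most 16.6 CPM. Leukocyte markers summed to 111 to 172 CPM in the outlying libraries, 95.7 to 146 CPM in the mates and 197 to 209 CPM in the controls, mostly from CD68, while CD3D and ITGAM stayed under 1 CPM. A set of 118 transcripts found almost only in sh-A summed to 2145 CPM in sh-A 3, against 388 and 396 CPM in sh-A 4 and sh-A 5 and at most 4.10 CPM in any other library. Their part in the sh-A 3 differences was not tested, and removing them before scaling left the number of shared genes at 31.

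The distance between 2 libraries was taken as the root mean square (RMS) log2 difference over all genes tested. In sh-A it was 0.565 and 0.581 between sh-A 3 and its mates and 0.248 between the mates, a ratio of 2.31. For sh-B 3 the distances were 0.358 and 0.368, against 0.206 between the mates, a ratio of 1.77. The separation of sh-C 1 was the smallest of the 3, at 0.301 and 0.286 against 0.220, a ratio of 1.33. The 3 pairs of control libraries lay 0.216, 0.241 and 0.270 apart, so sh-C 1 was only slightly farther from its mates than controls 2 and 3 were from each other. The outlying libraries did not move the same way relative to the control. Their mean distance to the control libraries was larger than that of their mates in sh-A (0.842, against 0.557 and 0.579) and in sh-B (0.574, against 0.526 and 0.529), and smaller in sh-C (0.375, against 0.432 and 0.409).

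**Figure D1:**
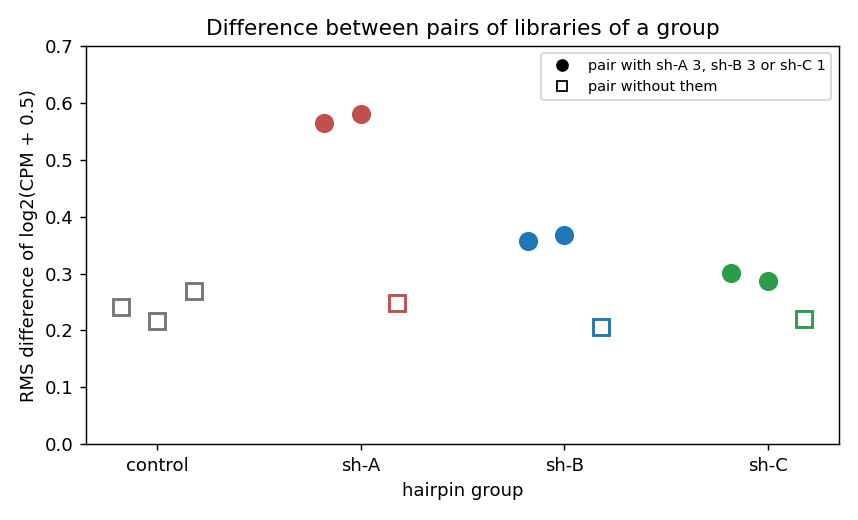
RMS difference of log2(CPM + 0.5) over 15592 genes (vertical axis) for each pair of libraries within a group (horizontal axis). Filled circles are pairs with an outlying library and open squares are all other pairs. The sh-A 3 pairs are the farthest apart, at 0.565 and 0.581, and the sh-C 1 pairs, at 0.286 and 0.301, lie just above the widest control pair at 0.270.

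Most of what set each library apart was not shared. RNA was measured in bulk, so a difference in some of the cells cannot be told apart from a smaller one in all of them. At 1.5-fold, 1472 genes were higher and 1351 lower in sh-A 3, 447 higher and 803 lower in sh-B 3, and 206 higher and 246 lower in sh-C 1. The libraries sh-A 3 and sh-B 3 deviated the same way for 437 genes, which is 15.5% of the sh-A 3 genes and 35.0% of the sh-B 3 genes, and opposite ways for 76. For sh-A 3 and sh-C 1 the same-way count was 124 (4.39% and 27.4% of their genes), with 31 opposite. For sh-B 3 and sh-C 1 it was 80 (6.40% and 17.7%), with 28 opposite. Across the 15592 genes, the deviations of 2 groups correlated at a Pearson r of 0.35 (sh-A and sh-B), 0.23 (sh-A and sh-C) and 0.22 (sh-B and sh-C). Genes are not independent replicates, and all deviations share the scaling and the annotation.

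In all 3 groups together, 14 genes (0.0898% of those tested) were at least 1.5-fold higher and 17 (0.109%) at least 1.5-fold lower. Because the contrast chose the libraries, these shares are the result of a threshold and nothing further is read from them. Only 2 genes, CSNK2A3 and RNU6-36P, were at least 2-fold higher in all 3 groups and none was 2-fold lower. With a lower threshold of 0.32 log2 units, which is 25% higher or 20% lower, 369 genes (2.37%) were higher and 263 (1.69%) lower. These 632 genes are called the wider set here. The balance of higher and lower genes depended on the scaling: from the deposited FPKM values, 243 genes were higher and 513 lower at this threshold, and 16 and 45 at 1.5-fold. On that scale the median deviation over all genes was -0.05, -0.10 and -0.04 in sh-A 3, sh-B 3 and sh-C 1. Regardless of size, the sign was positive in all 3 groups for 3357 genes (21.5%) and negative for 3448 (22.1%).

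Base composition, described further on, differed between the higher and lower genes of the wider set. Among the 31 shared genes it set apart mainly the lower ones. Of the 14 lower ones with a matched transcript, 11 lay in the top quintile of all genes by GC content and 2 in the bottom one. Of the 12 higher ones with a matched transcript, 4 lay in the bottom quintile and 2 in the top one, and their median GC content was 47.8%, against 49.5% over all genes. The first 90 coding bases of 3 higher genes, picked for a low GC content, and of 3 lower genes are printed as examples, taken from GENCODE 29 transcripts (GRCh38), 5′ to 3′, with every G and C in capitals. SSB, CWC15 and LLPH are higher in the outlying libraries, and NKX2-8, UBA7 and PRR7 are lower. PRR7 (71.3%) and NKX2-8 (66.3%) have the highest transcript GC content of the lower shared genes with a matched transcript.
SSB: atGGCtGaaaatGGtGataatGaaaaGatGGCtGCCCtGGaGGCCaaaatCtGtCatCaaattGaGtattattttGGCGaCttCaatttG
CWC15: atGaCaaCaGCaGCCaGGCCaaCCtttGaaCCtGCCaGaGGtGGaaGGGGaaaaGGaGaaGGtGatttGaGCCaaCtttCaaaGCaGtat
LLPH: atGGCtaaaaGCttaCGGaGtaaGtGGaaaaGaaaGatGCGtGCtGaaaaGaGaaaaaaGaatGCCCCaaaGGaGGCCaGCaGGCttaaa
NKX2-8: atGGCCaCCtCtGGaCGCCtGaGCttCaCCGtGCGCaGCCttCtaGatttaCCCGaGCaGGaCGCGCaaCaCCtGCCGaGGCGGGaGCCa
UBA7: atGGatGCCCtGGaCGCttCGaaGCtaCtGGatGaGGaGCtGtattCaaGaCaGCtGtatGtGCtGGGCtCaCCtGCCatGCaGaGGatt
PRR7: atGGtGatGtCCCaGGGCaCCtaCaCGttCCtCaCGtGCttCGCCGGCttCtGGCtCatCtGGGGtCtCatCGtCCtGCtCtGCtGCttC
G and C make up 38.9%, 48.9% and 43.3% of the printed bases of SSB, CWC15 and LLPH, and 64.4%, 53.3% and 60.0% of those of NKX2-8, UBA7 and PRR7. Over the whole coding sequence the shares are 36.8%, 43.5% and 40.8% for the former 3 genes and 71.1%, 58.5% and 70.9% for the latter.

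Of the 14 higher genes, 9 had a mean of at least 5 CPM over the 9 knockdown libraries, and 5 of these are ordinary single genes with roles in RNA handling, transcription or protein quality control. SSB encodes the La protein, which binds the ends of new RNA polymerase III transcripts. Its level was 565 CPM in sh-A 3 against 365 and 348 in the mates, 578 in sh-B 3 against 334 and 327, and 531 in sh-C 1 against 369 and 335. The outlying library of each group was the highest of its 3, as the counting rule requires. The control libraries (391, 446 and 370 CPM) lay between the mates and the outlying libraries. The mean deviation of SSB was 0.69 ± 0.11 log2 (SD, n = 3 hairpin groups). The choice of genes kept only deviations past the threshold, which raises this mean and narrows its SD.

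CWC15 encodes a spliceosome-associated protein. It stood at 97.2 CPM in sh-A 3 against 58.4 and 52.0, at 126 CPM in sh-B 3 against 82.9 and 82.8, and at 143 CPM in sh-C 1 against 98.9 and 89.8. LLPH, a small nucleolar protein, was at 127 CPM against 83.6 and 75.4 in sh-A, 153 against 93.2 and 81.2 in sh-B, and 148 against 99.1 and 92.2 in sh-C. Within each group the outlying library lay outside its mates for both genes, as the counting rule requires of every shared gene. For LLPH, outlying libraries and mates did not overlap across groups either, the lowest outlying value being 127 CPM and the highest mate 99.1 CPM. Among the higher genes above 5 CPM, the same held for SSB, ENY2, CSNK2A3, PHOSPHO2-KLHL23 and SERF2-C15ORF63. The genes were chosen on these deviations and no share over all genes is given, so nothing is read from the lack of overlap.

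ENY2 is shared by the SAGA histone-modifying complex and the TREX-2 mRNA export complex. Its level was 52.6 CPM against 31.5 and 32.1 in sh-A, 47.7 against 30.2 and 30.3 in sh-B, and 58.3 against 37.4 and 36.5 in sh-C. The mates repeated within 1 CPM of each other in each group, and the deviations of 0.72, 0.65 and 0.65 were close to equal. UBXN1, a cofactor of the p97 segregase in protein degradation, stood at 121 CPM against 83.4 and 66.2, 179 against 108 and 123, and 169 against 107 and 103. With a transcript GC content of 58.7%, UBXN1 does not have the low GC content of the 3 higher genes printed above, and neither do SERF2-C15ORF63 (55.3%), CELP (59.6%) or MAMSTR (63.9%).

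Of the other 4 higher genes above 5 CPM, CSNK2A3, PHOSPHO2-KLHL23 and SERF2-C15ORF63 are uncertain. Estimated counts can be split between them and overlapping or near-identical transcripts. CSNK2A3, a near-identical copy of the casein kinase gene CSNK2A1, had the largest deviations (1.76, 1.69 and 2.25 log2), with 7.06 CPM against 1.31 and 2.24 in sh-A, 23.2 against 6.88 and 6.81 in sh-B, and 18.7 against 2.56 and 4.82 in sh-C. CSNK2A1 itself, at 166 to 265 CPM in the knockdown libraries, deviated by only 0.08, 0.03 and -0.03. PHOSPHO2-KLHL23 is a readthrough transcript and deviated by 0.77, 0.99 and 1.53, while KLHL23 deviated by 0.81, -0.36 and -1.99 and PHOSPHO2 by 0.26, 0.28 and -0.11. The SERF2-C15ORF63 readthrough deviated by 0.86, 0.77 and 0.61, and SERF2 by -0.49, -0.24 and 0.01. MYH16, a myosin heavy chain gene that is a pseudogene in human, deviated by 1.00, 0.69 and 0.61. Whether its counts are shared with other transcripts was not examined.

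Of the 17 lower genes, 9 also reached 5 CPM. TNFRSF6B, a secreted decoy receptor of the TNF receptor family, was at 0.94 CPM in sh-A 3 against 1.46 and 3.25, at 12.1 CPM in sh-B 3 against 20.6 and 22.8, and at 2.24 CPM in sh-C 1 against 6.74 and 4.11. Its level also differed between hairpins, being highest in sh-B, while the sh-A and sh-C libraries overlapped. By the quasi-likelihood test of edgeR, described further on, it was lower than control in sh-A (log2 fold change -1.76, adjusted p = 0.017). By the same test it was higher than control in sh-B (1.51, adjusted p = 0.019). Within each group the outlying library was the lowest, as the counting rule requires. UBA7, which encodes the activating enzyme of the ubiquitin-like protein ISG15, was at 4.52 CPM against 15.5 and 15.7 in sh-A, 9.31 against 15.2 and 14.8 in sh-B, and 5.80 against 10.0 and 8.75 in sh-C, so that sh-A 3 deviated most.

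NKX2-8, a homeobox transcription factor gene, was at 2.59 CPM against 5.29 and 4.63, 4.61 against 7.48 and 8.77, and 3.31 against 6.08 and 5.18. PRR7, a proline-rich membrane protein, was at 5.46 CPM against 9.86 and 11.8, 7.81 against 13.5 and 15.8, and 7.27 against 13.4 and 11.7. For PRR7, every outlying library was below every mate of any group. The same held for NKX2-8 and, of the genes named next, for GPER1, SLC16A5, RAB43 and LOC100132062. As for the higher genes, nothing is read from this. GPER1, a G protein-coupled estrogen receptor, deviated by -1.35, -0.80 and -0.67, and SLC16A5, a member of the monocarboxylate transporter family, by -0.84, -0.85 and -0.62. RAB43, a small GTPase of membrane traffic, deviated by -1.35, -1.39 and -0.74. Its 2 sh-A mates and 2 sh-C mates spread widely (6.90 and 10.7 CPM, and 7.78 and 12.1 CPM). LOC100132062, an uncharacterised long non-coding RNA with close copies elsewhere, and the CORO7-PAM16 readthrough (-0.61, -1.69 and -0.81) are uncertain for the same reason as the higher readthroughs.

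**Figure D2:**
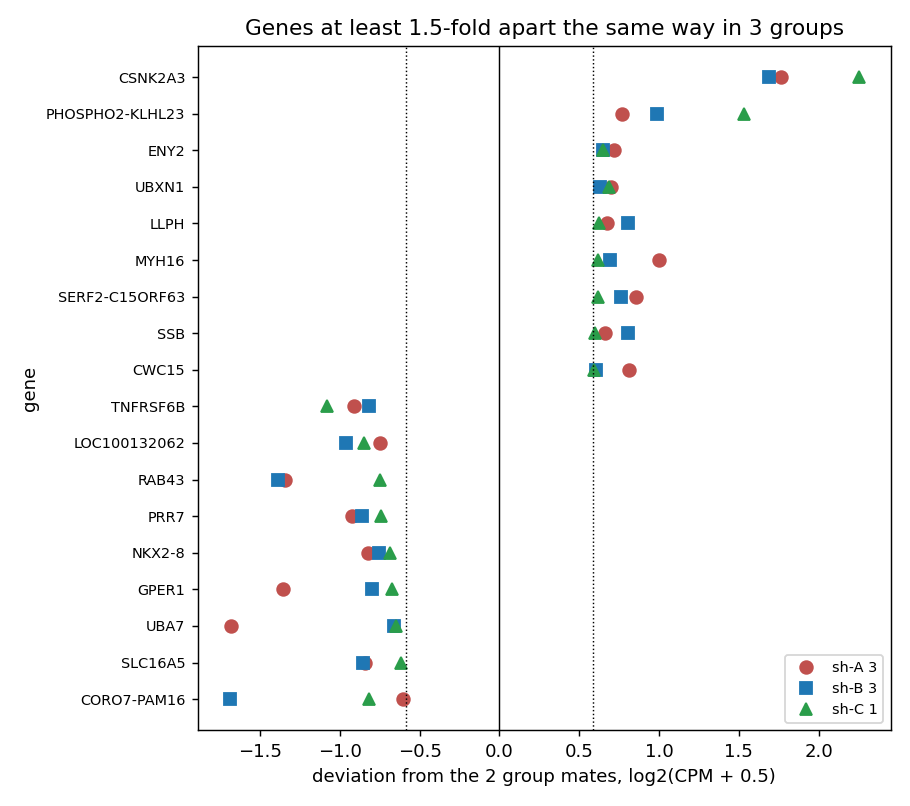
Deviation of each outlying library from its 2 group mates in log2(CPM + 0.5) (horizontal axis) for the 18 shared genes with a mean of at least 5 CPM (vertical axis). Red circles are sh-A 3, blue squares sh-B 3 and green triangles sh-C 1, and dotted lines mark 1.5-fold. CSNK2A3 is highest in all 3 libraries, and UBA7 in sh-A 3 and CORO7-PAM16 in sh-B 3 are far below the same genes in the other 2.

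The remaining 13 shared genes had mean levels under 5 CPM. The 5 higher ones, RNU6-36P, SNORD22, CELP, URGCP-MRPS24 and MAMSTR, averaged 0.29 to 2.79 CPM. The 8 lower ones, RAET1E-AS1, LINC00174, ZNRF2P1, IL17RE, KIAA0825, ORAI3, MIR4426 and PLK5, averaged 1.44 to 4.39 CPM. These 13 names were taken after their values were seen, and at such levels a deviation depends on few fragments. MIR4426 was at 0 in the 3 control libraries and at 0.63 to 3.36 CPM in the 9 knockdown libraries.

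The threshold cuts a continuous range. The smallest of the 3 deviations was 0.59 for CWC15, 0.60 for SSB and 0.61 for SERF2-C15ORF63, just inside it, and 0.58 for RSRC2, an arginine/serine-rich protein, for MNS1 and for UPF3B, a factor of nonsense-mediated decay, just outside it. On the lower side it was -0.61 for CORO7-PAM16, -0.62 for SLC16A5 and -0.65 for UBA7, and -0.57 for ZNF132, -0.54 for CERS4, a ceramide synthase, and -0.53 for LOC729737.

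KAT5, the hairpins' target, did not set the libraries apart. Its level was 19.5 CPM in sh-A 3 against 20.0 and 18.7, 14.7 in sh-B 3 against 13.4 and 12.7, and 8.24 in sh-C 1 against 7.30 and 8.21, with 31.8, 27.6 and 27.5 CPM in the control libraries. The deviations were 0.01, 0.16 and 0.09 log2, while against control KAT5 fell by 0.58 ± 0.09 (SE) in sh-A, 1.09 ± 0.10 in sh-B and 1.87 ± 0.10 in sh-C on the log2 scale (edgeR, adjusted p = 0.000912, 1.1e-05 and 1.57e-06). MYC, a transcription factor that works with the NuA4/TIP60 complex, was higher than in the mates in sh-A 3 and sh-B 3 but not in sh-C 1. It stood at 561 CPM in sh-A 3 against 319 and 289, at 914 in sh-B 3 against 526 and 579, and at 1220 in sh-C 1 against 1276 and 1243, with deviations of 0.89, 0.73 and -0.05.

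None of the 33 gene lists examined had a member at 1.5-fold in all 3 groups, so the list members named from here on were picked after their values were seen, most of them because they belong to the wider set. The medians over all genes tested were 0.01, -0.00 and -0.01 in sh-A 3, sh-B 3 and sh-C 1, which is the level each list is read against. Members of a list in the wider set stand beside 2.37% of all genes higher and 1.69% lower. The lists were chosen with earlier results of these data known, so nothing further is read from how many members are in the wider set. No list was tested. Of the list medians given below, those of cytosolic ribosomal proteins and interferon-stimulated genes in sh-C 1, both 0.02, were -0.02 on the FPKM scale. The 13 mitochondrially encoded genes were not measured.

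Heat shock proteins, the chaperones that fold and protect other proteins, had the highest medians, at 0.48, 0.46 and 0.15 over 24 measured genes. Of these, 6 were in the wider set as higher (HSPA4, HSPH1, HSPD1, HSPE1, DNAJA1 and CHORDC1), and HSPB1, a small heat shock protein, was lower. The wider set held 2.37% of all genes as higher and 1.69% as lower. DNAJA1, a co-chaperone of HSP70, was at 540 CPM in sh-A 3 against 307 and 295, at 722 in sh-B 3 against 442 and 434, and at 772 in sh-C 1 against 548 and 523. HSPD1, the mitochondrial chaperonin, was at 2241 CPM against 1405 and 1364, 1948 against 1295 and 1303, and 2233 against 1801 and 1709. HSPB1 went the other way, at 546 CPM against 974 and 1022, 318 against 426 and 450, and 699 against 923 and 929. The stress-inducible HSP70 genes HSPA1A (0.40, 0.34 and -0.07) and HSPA1B (1.21, 0.05 and -0.09), which are near-identical copies, did not deviate the same way in all 3 groups. HSPA8, the constitutive HSP70, deviated by 0.61, 0.64 and -0.04.

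Nucleolar ribosome biogenesis genes had medians of 0.33, 0.35 and 0.07 over 40 genes. Of these, 24 (60.0%) were higher in all 3 groups regardless of size and 0 were lower, against 21.5% and 22.1% of all genes. Those in the wider set were NCL, NPM1, NOP58, GNL3 and LYAR. NCL, encoding nucleolin, was at 2884 CPM in sh-A 3 against 2037 and 1815, at 3573 in sh-B 3 against 2237 and 2238, and at 3701 in sh-C 1 against 2712 and 2490. NPM1, encoding nucleophosmin, was at 2394 CPM against 1717 and 1596, 3787 against 2288 and 2203, and 3951 against 3033 and 2766. Cytosolic ribosomal protein genes had smaller medians (0.18, 0.21 and 0.02), with 25 of 47 higher and 7 lower in all 3 groups, and RPL5, RPL23, RPS6 and RPS25 were in the wider set.

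Among the other lists, NuA4/TIP60 subunits had medians of 0.23, 0.26 and 0.09. Of the 18 measured, 12 (66.7%) were higher and 1 (5.56%) was lower in all 3 groups, against 21.5% and 22.1% of all genes. MORF4L1, a chromodomain subunit, was in the wider set, at 353 CPM against 281 and 268, 354 against 251 and 267, and 295 against 239 and 215. Genes of mitosis had medians of 0.14, 0.12 and 0.09, and CENPE, a kinetochore motor, and HMMR were in the wider set. Immediate early genes, the first transcripts induced by growth factors and stress, were higher in sh-A 3 and sh-B 3 (0.35 and 0.43) and not in sh-C 1 (-0.06), as MYC was.

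The lists on the lower side were led by sh-A 3. Interferon-stimulated genes had medians of -1.09 in sh-A 3, -0.17 in sh-B 3 and 0.02 in sh-C 1 over 44 genes. Regardless of size, 17 of the list (38.6%) were lower in all 3 groups and 0 were higher, against 22.1% and 21.5% of all genes. IFI6, IRF7, IFITM2 and IFITM3 were in the wider set. IFITM3, a membrane protein that limits viral entry and a close copy of IFITM2, was at 88.6 CPM in sh-A 3 against 238 and 276, at 179 in sh-B 3 against 260 and 299, and at 192 in sh-C 1 against 248 and 233. The list's median in the control libraries ranged from -0.11 in control 1 to 0.12 in control 3 around their mean.

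Epithelial identity genes had medians of -0.68, -0.23 and -0.06. Of 29 genes, 18 (62.1%) were lower and 1 (3.45%) was higher in all 3 groups, against 22.1% and 21.5% of all genes. JUP, a junction protein also called plakoglobin, was at 105 CPM against 209 and 220, 160 against 232 and 249, and 167 against 217 and 208. OVOL1 and PRSS8 were also in the wider set. On the mesenchymal list, ZEB1, a repressor of epithelial genes, was at 13.9 CPM in sh-A 3 against 5.83 and 6.02, at 4.80 in sh-B 3 against 2.82 and 2.45, and at 4.73 in sh-C 1 against 3.30 and 4.06, but SNAI1, another such repressor, was lower in all 3 outlying libraries (-0.70, -0.33 and -0.38). Hypoxia and glycolysis genes had medians of -0.21, -0.14 and -0.10, and lysosome and autophagy genes -0.34, -0.09 and -0.12. Of these lists, 20 of 36 genes (55.6%) and 15 of 28 (53.6%) were lower in all 3 groups, against 22.1% of all genes. In each list 2 genes were higher in all 3. SLC2A1, the glucose transporter GLUT1, was at 102 CPM against 132 and 137, 141 against 186 and 201, and 173 against 220 and 221.

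**Figure D3:**
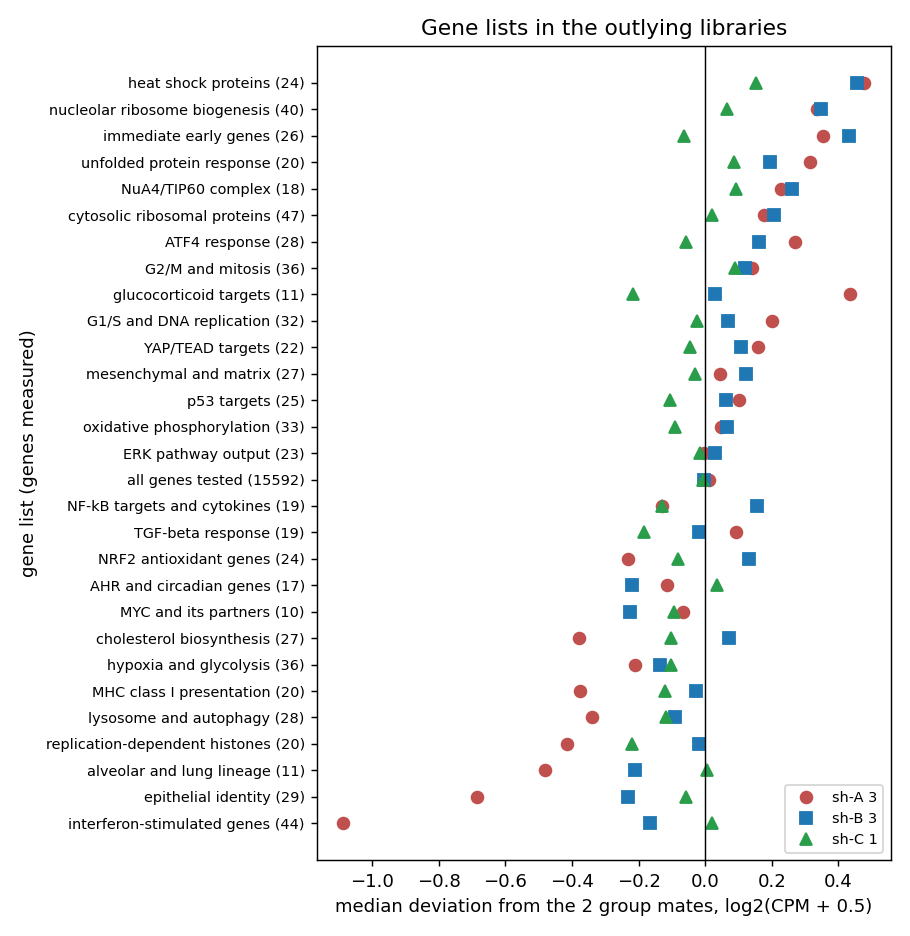
Median deviation of each outlying library from its 2 mates in log2(CPM + 0.5) (horizontal axis) for gene lists with at least 10 genes measured and for all genes tested (vertical axis). Red circles are sh-A 3, blue squares sh-B 3 and green triangles sh-C 1. Heat shock proteins lie at the top, at 0.48, 0.46 and 0.15, and interferon-stimulated genes at the bottom, where only sh-A 3 (-1.09) is far from 0.

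The higher and lower genes of the wider set differed in base composition, which the rule did not use. Transcript GC content had a median of 43.3% (quartiles 40.0% and 50.7%) over the 352 higher genes with a matched transcript and 60.2% (55.5% and 63.6%) over the 240 lower ones, against 49.5% (42.8% and 57.3%) over 14942 genes. The top quintile of all genes by GC content held 60.4% of the lower genes and 5.11% of the higher ones. The bottom quintile held 3.33% of the lower genes and 37.5% of the higher ones. From the lowest to the highest quintile, the median deviation went from 0.11 to -0.17 in sh-A 3, from 0.10 to -0.10 in sh-B 3 and from 0.08 to -0.18 in sh-C 1, falling at each step. The Spearman correlation with GC content across genes, whose points share a library and its depth, was -0.25, -0.23 and -0.39. Higher genes were also more abundant (median 70.4 CPM) and lower genes less abundant (7.50 CPM) than all genes (21.6 CPM), and transcript length showed no common trend (Spearman 0.03, -0.23 and 0.16).

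The control libraries, which did not enter the choice of libraries or genes, varied along the same axis. In control 2 the median difference from the control mean went from 0.07 in the lowest GC quintile to -0.11 in the highest, and in control 3 from -0.05 to 0.10. Control 2 was the highest control library for 299 of the 369 higher genes (81.0%), against 37.5% of all genes, and the lowest for 201 of the 263 lower genes (76.4%), against 38.5%. Control 3 was the lowest for 273 of the higher genes (74.0%), against 34.2%, and the highest for 195 of the lower genes (74.1%), against 36.2%. Higher genes had a median of 0.12 in control 2 and -0.11 in control 3, and lower genes -0.17 and 0.15. Control 2 also had the fewest counts of the series, and sh-B 3 and sh-C 1 the fewest of their groups, while sh-A 3 had more counts than sh-A 4. The part of depth in these differences was not tested. Weighted by counts, mean GC content was 48.6% in control 2 against 49.0% and 49.2% in the other controls. It was likewise lowest in each outlying library, at 48.8% in sh-A 3 against 49.3% in both mates, 48.6% in sh-B 3 against 48.9% and 49.1%, and 49.0% in sh-C 1 against 49.6% and 49.5%.

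**Figure D4:**
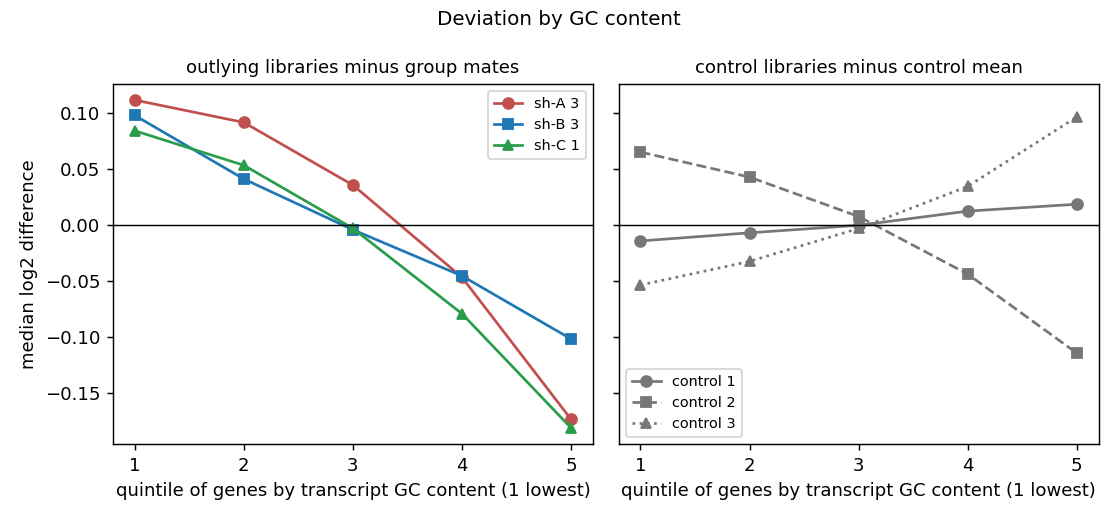
Median log2 difference (vertical axis) by quintile of genes ranked on transcript GC content (horizontal axis, 1 is lowest). The left panel shows each outlying library minus its 2 mates and the right panel each control library minus the control mean. All 3 outlying libraries fall with GC content, as does control 2 (0.07 to -0.11), while control 3 rises (-0.05 to 0.10).

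Subtracting from each group's deviations a cubic fit on GC content and length, an alternative added after the data were seen, left 386 genes past the lower threshold, 253 higher and 133 lower, of which 291 were in the original set. At 1.5-fold it left 24 genes, 17 higher and 7 lower, with 12 of the 24 shared with the original 31 (14 higher and 17 lower). Genes without a matched transcript could not be counted after the fit, whatever their values. A matched transcript was found for 352 of the 369 higher and 240 of the 263 lower genes. At 1.5-fold it was found for 12 of the 14 higher and 14 of the 17 lower genes. The chaperone medians were then 0.45, 0.43 and 0.13, the nucleolar medians 0.36, 0.35 and 0.10, and the interferon-stimulated median in sh-A 3 was -1.01. The mitosis medians were 0.01, 0.10 and 0.04, against 0.14, 0.12 and 0.09 before the fit, and the epithelial medians -0.56, -0.14 and -0.03, against -0.68, -0.23 and -0.06. In control 2, the 352 higher genes with a matched transcript still had a median of 0.09 after the same fit, and the 240 lower ones -0.08. The part of library preparation in these differences was not tested, because no label dates or batches the libraries.

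Seen from the control, the outlying libraries and their mates lay on opposite sides. The 369 higher genes had a median log2 difference from the control mean of 0.22, 0.27 and 0.31 in sh-A 3, sh-B 3 and sh-C 1, and of -0.34, -0.26 and -0.14 over the mates of the same groups. The 263 lower genes had medians of -0.39, -0.40 and -0.36 in the outlying libraries and of 0.27, 0.16 and 0.06 over the mates. Both sides entered the choice of genes, so this order describes the set.

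**Figure D5:**
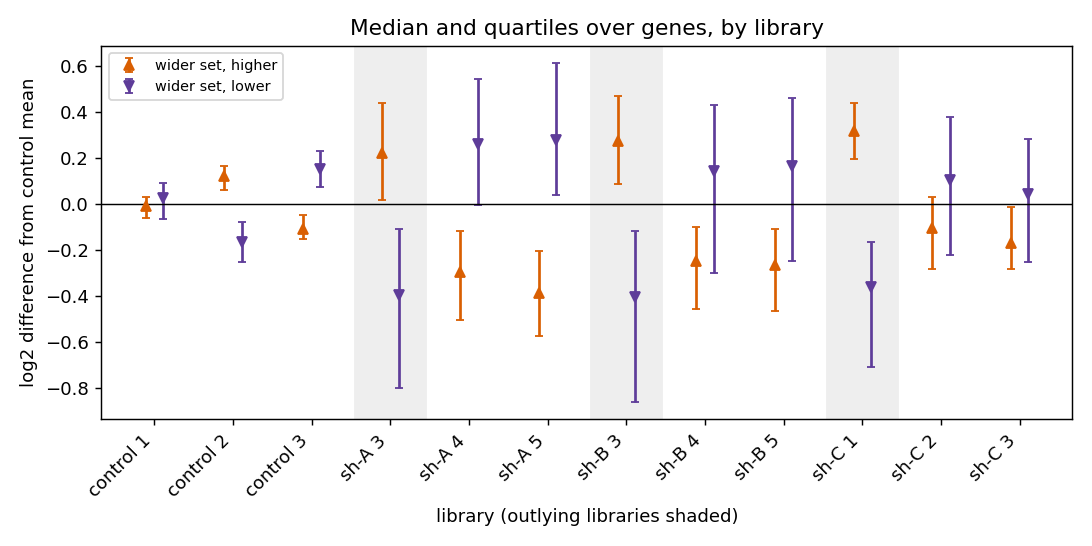
Log2 difference from the control mean (vertical axis) in each library (horizontal axis) for the 369 genes higher (orange) and the 263 genes lower (purple) of the wider set. Points are medians and bars the quartiles over genes. In the shaded outlying libraries the higher genes lie above the control (0.22, 0.27 and 0.31) and the lower genes below it, the mates show the reverse order, and control 2 has the order of the outlying libraries at a smaller size.

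The outlying libraries changed how many genes the comparisons of hairpin and control called. These comparisons used the quasi-likelihood F-test of edgeR with Benjamini-Hochberg adjustment at 0.05, with 1 spread estimated over all groups. With all 12 libraries, 4167 genes (26.7%) were called in sh-A, 4688 (30.1%) in sh-B and 2643 (17.0%) in sh-C. Without the 3 outlying libraries the counts were 7231 (46.0%), 7388 (47.0%) and 6725 (42.8%) of 15723 genes tested, and 4086, 4636 and 2640 of the genes called with 12 libraries were called again. The removed libraries were those selected on their spread, so the spread in the 9-library fit is small by selection.

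In each hairpin group, leaving out the outlying library gave more calls than leaving out either mate. The outlying libraries were selected for lying apart from their mates, so nothing is read from this order. In sh-C the test called 2762 genes without sh-C 1, but 766 without sh-C 2 and 885 without sh-C 3. In sh-A it called 4892 without sh-A 3, against 3637 and 3527 without sh-A 4 and sh-A 5. In sh-B it called 4299 without sh-B 3, against 3568 and 3608 without sh-B 4 and sh-B 5. The sh-B count without sh-B 3 was below the 4688 called with all 12 libraries. The counts without sh-A 3 and without sh-C 1 were above the 12-library counts of 4167 and 2643.

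Of the 31 shared genes, 3 were called in sh-A, 4 in sh-B and 1 in sh-C with 12 libraries, by edgeR. MIR4426 was called in all 3 groups, MYH16 and TNFRSF6B in both sh-A and sh-B, and IL17RE in sh-B alone. Without the outlying libraries, 7 of 13 higher and 9 of 17 lower genes were called in sh-A. The sh-B comparison called 8 higher and 9 lower genes of these, and the sh-C comparison 5 and 5. The 9-library backgrounds, over genes tested in both fits, were 46.1%, 47.2% and 43.1%, in the order sh-A, sh-B and sh-C. The shares called were 53.8%, 61.5% and 38.5% of the higher shared genes and 52.9%, 52.9% and 29.4% of the lower ones. All of the higher genes called in these 3 comparisons were below control. Of the lower genes called, 8 were above control and 1 below it in sh-A. In sh-B 6 were above and 3 below, and in sh-C 3 were above and 2 below. Only the mates stand for the hairpin groups in this fit, and their values helped choose the genes. Nothing is therefore read from the direction or share of these 9-library calls. In the wider set, 10.8% of the higher and 10.6% of the lower genes were called in sh-A with 12 libraries, 7.86% and 19.8% in sh-B, and 1.63% and 5.32% in sh-C. These shares are under the backgrounds of 26.7%, 30.1% and 17.0%, but the genes were picked for a large spread within groups, which enters this test, so nothing is read from the shortfall.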

How the data were processed

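Per the labels, RNA of 12 H1975 libraries was selected on poly-A, primed at random and sequenced as circularised libraries, by steps that do not mark strand. For each library, the authors deposited gene-level expected counts and FPKM values. RSEM, HISAT, Bowtie2 and hg19 are named in the submitters' processing notes, whose versions and settings the sources used here do not give. Gene lengths in the deposited tables (another unit, in bases) served the fit on GC content and length and the correlations with length. Symbols came from the authors' comparison tables by gene ID, or from RefSeq (15620 and 4734 genes, with 79 unnamed).

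Expected counts were rounded, filtered with the default of edgeR 4.0.16 in R 4.3.3 (minimum count 10) and given trimmed-mean (TMM) scaling factors. DESeq2 1.42.0 and FPKM served as alternatives. GC content came from GENCODE 29 transcripts matched by RefSeq accession (95.8% of genes). A standard error is |log2 fold change| divided by the root of F. The scripts were tested on simulated data.

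The 3 libraries, the genes described and the 33 gene lists were all chosen with earlier results of these data known. The named genes are KAT5 and MYC, up to 12 shared genes per direction with a mean of at least 5 CPM (all 9 and 9 that there were), up to 4 members of each list at 1.5-fold (there were none, so list members in the text were named after their values were seen), the 3 genes on each side of the threshold and up to 4 genes at least 2-fold apart in opposite directions. The number of deposited per-sample columns matching no sample was 0.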

Additional observations from a re-analysis of the deposited data

Results flagged for a closer look

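NME1-NME2 and PTPRG deviated in opposite directions in different hairpin groups, each by at least 2-fold and with a mean of at least 5 CPM. The difference between groups was not tested. The NME1-NME2 readthrough, whose counts are shared with NME1 and NME2 and are uncertain, deviated by 2.92 in sh-A 3, -1.21 in sh-B 3 and 1.27 in sh-C 1, a span of 4.13 log2 units. Its 2 sh-A mates were themselves apart, at 26.1 and 4.07 CPM, against 83.0 CPM in sh-A 3. NME1 deviated by 0.24, 0.33 and -0.17, and NME2 by -0.12, -0.12 and -0.37. PTPRG, a receptor tyrosine phosphatase, deviated by 1.08, -1.12 and 0.19, a span of 2.20. It was at 15.3 CPM in sh-A 3 against 6.75 and 7.25, at 7.18 CPM in sh-B 3 against 16.7 and 15.6, and at 9.36 CPM in sh-C 1 against 6.74 and 9.86, inside the range of the sh-C mates.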

How the results depend on the processing

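The count of 31 shared genes depended on the threshold and on low levels. It was 2 at 2-fold, 632 with the lower threshold of 0.32 log2, 101 and 11 with a pseudocount of 0.1 and 2 CPM, 17 among genes with a mean of at least 5 CPM over 12 libraries, and 61 from FPKM (16 higher and 45 lower, against 14 and 17). FPKM also turned the balance of the wider set, from 369 higher and 263 lower to 243 and 513. With 1 hairpin group left out it was 80 (without sh-A), 124 (without sh-B) and 437 (without sh-C), and with the lower threshold 1001, 1272 and 2175. The fit on GC content and length, which covers only genes with a matched transcript, gave 386 with the lower threshold. Leaving out single mates gave 32 to 42 genes at 1.5-fold and 603 to 680 with the lower threshold. DESeq2 size factors gave 33 and 643. The ratio of distances with a pseudocount of 2 CPM was 2.66 in sh-A, 2.17 in sh-B and 1.47 in sh-C. With the usual pseudocount, among genes of at least 5 CPM, it was 2.35 in sh-A, 2.59 in sh-B and 1.57 in sh-C. The ratio, which also depends on how close the mates lie, was then highest in sh-B and not in sh-A.

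Without the 3 outlying libraries, edgeR called 7231, 7388 and 6725 genes against control in sh-A, sh-B and sh-C. Leaving out single libraries gave 2985 to 4892, 3236 to 4299 and 766 to 2762, and all 3 controls mattered for sh-C, with 1375, 1036 and 1007 genes without control 1, 2 and 3. Control and sh-C share replicate numbers in the labels. The differences of same-numbered libraries from their group means correlated at -0.10, -0.21 and 0.17. Differently numbered ones ranged from -0.23 (control 3 with sh-C 1) to 0.30 (control 2 with sh-C 1), so the numbers are not taken as pairs. On these 6 libraries, the fit with the replicate block called 3670 genes and the fit without it 4862. Among the named genes, the mean deviation of PTPRG, 0.05 with opposite signs in sh-A and sh-B, was below 0 in 5 alternatives (lowest -0.47, without sh-A).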
